A study of Mus musculus with 4 samples.

Results

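The genes described here encode the fibroblast (FGF), vascular endothelial (VEGF), platelet-derived (PDGF), hepatocyte (HGF) and epidermal (EGF) growth factors, the neuregulins, and the receptors of the FGF, HGF and EGF families. They were chosen by mouse gene symbol, which gave 54 genes of the 48526 gene identifiers in the count tables (42 ligands and 12 receptors or co-receptors). Between 41 and 43 of the 54 had at least 1 read in a library, and 35 passed the filter on low counts (25 ligands, 10 receptors). Such proteins bind receptor tyrosine kinases on neighbouring cells. The bound receptor recruits adaptors, switches on RAS and the MAP kinase cascade, and induces its own feedback inhibitors. In the liver, HGF and the EGF receptor ligands drive hepatocyte growth, VEGF and FGF ligands act on blood vessels, and PDGF acts on stellate cells and fibroblasts.

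Tumours were taken from C57BL/6 mice on a methionine- and choline-deficient (MCD) diet, which produces fatty liver, after RIL-175 cells carrying luciferase had been implanted in the liver. RIL-175 is a mouse hepatoma line, so the malignant cells of all 4 tumours come from 1 line. In the AKK group the mice were fed 5000000000 colony-forming units of the gut bacterium Akkermansia muciniphila, and in the PBS group they received buffer. Feeding ran for 2 weeks before and through 2 weeks of diet, stopped for 6 days after surgery and then resumed. Each group has 2 libraries (PBS 1, PBS 2, AKK 1 and AKK 2). The labels give neither the age nor the sex of the mice. They call the replicates biological without saying that each is a separate animal, so the tests measure only the spread between these samples. The deposited tables are named in a different pattern in each group; if that marks cohorts, their effect cannot be told apart from that of feeding. The comparison asks how feeding the bacterium alters the tumour transcriptome.

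The libraries held 48912489 to 59027227 reads on genes. Values are read counts scaled to library size (CPM) with TMM, a correction for library composition; 3 reads, the number that an observed 0 still allows, are worth 0.0514 to 0.0631 CPM, counting error only. Where 4 values of a gene are given in a row, their order is PBS 1, PBS 2, AKK 1, AKK 2. Of 10 markers that define hepatocytes, 9 were nearly missing from the PBS tumours. These 9, all but the transcription factor gene Hnf4a, summed to 1.14 and 2.82 CPM in PBS and 468 and 128 CPM in AKK. Hnf4a was abundant in both groups and overlapped between them, at 74.9 and 168.5 CPM in PBS and 48.7 and 119.1 in AKK. The fibrinogen gene Fgb, a marker on this list, was the single gene of the whole table to pass the edgeR test. Skeletal muscle markers summed to 233 CPM in PBS 1 and 2.16 to 6.92 CPM in the other 3 libraries. In bulk tissue, fewer cells of a type and less RNA per cell cannot be told apart.

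None of the 35 growth factor genes passed the edgeR test at an adjusted p of 0.05, a threshold that 0.00572% of all genes passed. At an unadjusted p under 0.05 there were 7, where 15.3% of all genes lay: Fgf2, Fgfr2 and Pdgfa higher in AKK and Ereg, Pdgfd, Nrg1 and Met lower. The share of all genes was 6.7% for higher and 8.62% for lower values. DESeq2 called 5 of the 35, against 5.12% of all genes it tested, namely Fgf2, Fgfr2 and Pdgfa as higher (2.08% of all genes) and Ereg and Pdgfd as lower (3.04%). limma-voom called 0. Both AKK libraries lay on 1 side of both PBS libraries for 17 of the 35 genes, a share close to the 51.4% of all genes, with 9 higher and 8 lower (26.7% and 24.7% of all genes). The median log2 fold change, AKK minus PBS, was 0.15 over the 35 genes and 0.02 over all 17479 genes tested.

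**Figure D1:**
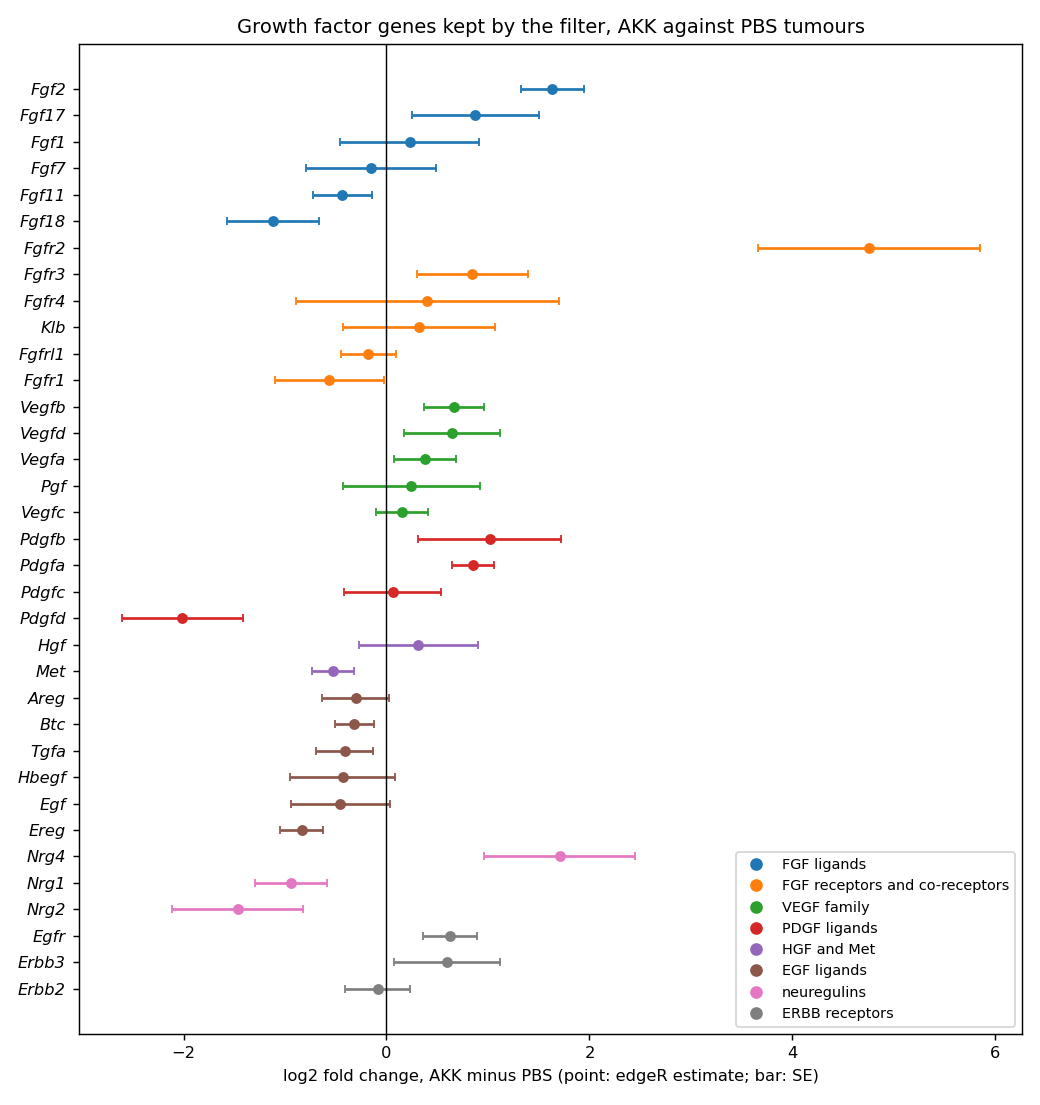
Log2 fold changes (AKK minus PBS, horizontal axis) of the 35 growth factor genes that passed the filter, coloured by family. Points are edgeR estimates and bars their standard errors, with 2 libraries per group; Fgfr2 lies farthest to the right at 4.75 and Pdgfd farthest to the left at -2.01.

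Among the FGF ligands, Fgf2 was the gene with the smallest p of the whole set. Fgf2 (ENSMUSG00000037225.13), basic fibroblast growth factor, is a mitogen of endothelial cells and fibroblasts that leaves the cell without a signal peptide. PBS 1 gave 4.54 and PBS 2 gave 6.88 CPM, whereas AKK 1 gave 17.6 and AKK 2 gave 17.9 CPM. The AKK libraries were nearly equal, and both lay above both PBS libraries. The log2 fold change was 1.64 (SE 0.31, n = 2 per group), with an adjusted p of 0.182 in edgeR and 0.000192 in DESeq2. Leaving out any 1 library kept it between 1.36 and 1.94.

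Fgf2 shares its locus with a gene on the other strand, Nudt6, so the strand of the reads matters here. The strand of Fgf2 held 242 reads for PBS 1, 327 for PBS 2, 993 for AKK 1 and 1043 for AKK 2. On the opposite strand the same locus held 440, 382, 442 and 469 reads. Own-strand reads separated the groups, while opposite-strand reads lay between 382 and 469 in the 4 libraries. The unstranded counts, which are not the sum of both strands, were 448, 474, 950 and 1064 reads. With these the log2 fold change of Fgf2 was 0.95 (edgeR adjusted p = 0.218).

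**Figure D2:**
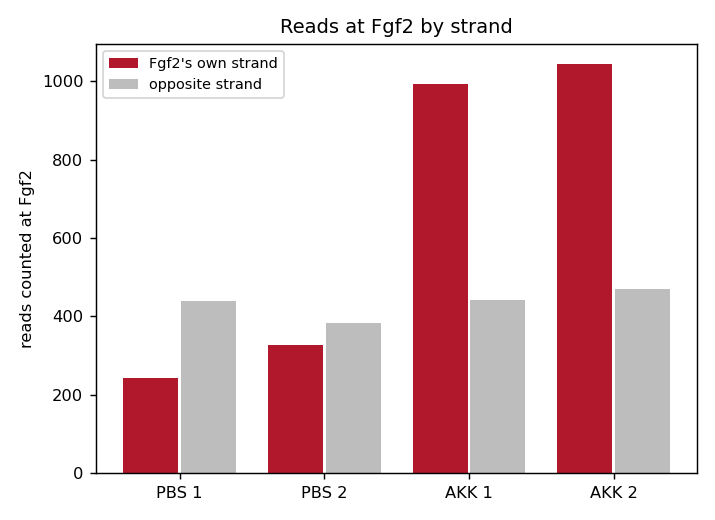
Raw reads counted at Fgf2 in each of the 4 libraries, on the gene's own strand (red) and on the opposite strand (grey). Own-strand reads lie at 242 and 327 in PBS and at 993 and 1043 in AKK, while opposite-strand reads lie between 382 and 469.

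The other FGF ligands had no common direction. Of the 22 genes of this family 6 passed the filter, 3 with a positive and 3 with a negative fold change. Fgf1, acidic FGF, which binds every FGF receptor, gave 7.24 and 25.3 CPM with PBS, then 27.6 and 10.5 CPM with AKK. It differed more than 2-fold within each group, and the groups overlapped. Fgf18, a ligand best known from bone and lung, read 2.16 and 2.19 CPM in PBS and 0.832 and 1.17 in AKK, a log2 fold change of -1.12 (SE 0.46, edgeR adjusted p = 0.327). Fgf11, which stays inside cells, read 10.03 and 12.8 CPM in PBS and 9.22 and 7.66 in AKK. Fgf7, the keratinocyte growth factor of connective tissue, lay between 0.421 and 1.22 CPM with overlapping groups. Fgf17 had 8 to 23 reads per library.

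Fgf21, a hormone that hepatocytes secrete in fasting and metabolic stress, did not reach the filter. It had 0 reads in PBS 1 and PBS 2, 28 in AKK 1 and 9 in AKK 2. Taken against 3 reads per PBS library, its mean was at least 5.44-fold higher in AKK, with no test. Hepatocyte markers other than Hnf4a were also highest in these 2 libraries, and the part of hepatocytes in the result was not tested. The other FGF ligand genes below the filter had few or no reads. Fgf13 had 19, 3, 0 and 5. Fgf3, Fgf4, Fgf6, Fgf14, Fgf16 and Fgf22 had 0 reads in all 4 libraries. Fgf5, Fgf8, Fgf9, Fgf10, Fgf12, Fgf15, Fgf20 and Fgf23 had at most 9 in any library, among them Fgf15, the gut hormone that restrains bile acid synthesis, at 2, 5, 9 and 2 reads.

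Per length of exon, the make-up of the FGF ligand signal differed between libraries. The measure is CPM per kilobase of annotated exon (RPKM), summed over the 22 genes. Fgf2 held 8.62% and 8.37% of this sum in PBS 1 and PBS 2, and 21.0% and 30.2% in AKK 1 and AKK 2. Fgf11 held 42.4% and 34.7% in PBS against 24.5% and 28.9% in AKK, and Fgf1 held 17.1 to 40.9% with overlapping groups. Fgf18 held 23.4% and 15.2% in PBS and 5.67% and 11.3% in AKK. The sum itself was 7.76 and 12.1 RPKM in PBS and 12.4 and 8.72 RPKM in AKK, so it overlapped between groups.

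Of the FGF receptors, Fgfr2 showed the largest fold change among all growth factor genes. Fgfr2 (ENSMUSG00000030849.18) encodes a receptor with separate splice forms in epithelium and mesenchyme; gene counts do not separate these forms. It had 6 reads (PBS 1), 0 (PBS 2), 119 (AKK 1) and 67 (AKK 2), or 0.113, 0, 2.11 and 1.15 CPM. Every AKK value exceeded every PBS value, and the level was low throughout. The fitted log2 fold change was 4.75 (SE 1.09) in edgeR and 4.80 in DESeq2, and its PBS side rests on the 6 reads of PBS 1. Fgfr2 passed the filter on low counts through the AKK libraries alone, and its adjusted p was 0.194 in edgeR and 0.00107 in DESeq2. Without PBS 1 the estimate was 9.46, a size that depends on the prior count because the remaining PBS library was at 0. It was 3.79 without PBS 2, 4.25 without AKK 1 and 5.12 without AKK 2.

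Among members at an unadjusted p under 0.05, windows of 250 bases before the RefSeq start were checked for exons of their own gene (GENCODE M21). No window was available for Ereg and Nrg1. Of the windows checked, only those of Fgfr2 and Pdgfd held none, and they are shown so that the sequence ahead of each start can be read. They are printed 5′ to 3′ on the gene's strand (GRCm38.p6). Both genes also had the largest fold change of the members in their direction. The window of Fgfr2 is chr7:130266809-130267058 on the minus strand, and its RefSeq start lies 545 bases from the nearest start in GENCODE M21. That of Pdgfd is chr9:6168236-6168485 on the plus strand, with a RefSeq start 98 bases from the nearest GENCODE start. Capitals mark matches, on either strand, to the GC box GGGCGG, the AP-1 site TGACTCA, the TATA box TATAAA, the cyclic AMP response core TGACGT and the CCAAT box CCAAT.
Fgfr2: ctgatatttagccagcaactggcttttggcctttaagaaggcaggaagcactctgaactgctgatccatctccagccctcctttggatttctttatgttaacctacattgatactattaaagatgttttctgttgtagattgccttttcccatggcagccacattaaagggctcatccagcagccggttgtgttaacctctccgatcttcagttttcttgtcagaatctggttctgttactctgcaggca
Pdgfd: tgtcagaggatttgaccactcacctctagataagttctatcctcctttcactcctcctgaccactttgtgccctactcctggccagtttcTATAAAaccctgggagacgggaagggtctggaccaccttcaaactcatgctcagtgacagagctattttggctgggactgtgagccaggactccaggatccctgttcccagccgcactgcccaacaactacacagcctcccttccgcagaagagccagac

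The Fgfr2 window held none of these letters, had 2 CpG and was 44% G or C. The Pdgfd window held 1 TATAAA, which begins 160 bases before the start, had 3 CpG and was 53.6% G or C. Over all 32851 RefSeq windows of that length, the median was 52.4% with 6 CpG, and 32.7% held GGGCGG, 4.46% TGACTCA, 12.4% TATAAA, 6.47% TGACGT and 33.8% CCAAT. A match describes letters and is not a site. Of the 54 genes 41 had an entry in this table.

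None of the remaining FGF receptors reached an unadjusted p under 0.05, and of these the groups were apart for Fgfr3 alone. Fgfr1, the receptor of fibroblasts and endothelium, gave 64.9 CPM (PBS 1), 20.7 (PBS 2), 22.7 (AKK 1) and 35.4 (AKK 2). PBS 1 stood above the other 3, and without it the log2 fold change turned from -0.56 to 0.48. Fgfr3 had 2.32 and 0.988 CPM with PBS and 3.29 and 2.67 CPM with AKK (0.85, SE 0.55, edgeR adjusted p = 0.481). Fgfr4, the main FGF receptor of hepatocytes, had 2 reads in PBS 1 and 89, 77 and 67 in PBS 2, AKK 1 and AKK 2, so that the PBS libraries lay on both sides of AKK. Klb, the co-receptor for hormone-like FGF21 and FGF15, had 16 to 58 reads (28.9% of reads there were on the opposite strand) with overlapping groups, and Kl, the co-receptor for FGF23, had 3, 0, 0 and 0. Fgfrl1, a receptor-like protein without a kinase domain, read 27.4 to 43.2 CPM and overlapped between groups.

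Hepatocyte markers other than Hnf4a lay higher in the AKK libraries, as Fgfr2 did. The 10 hepatocyte markers summed to 76.0 to 171 CPM in PBS, nearly all of it Hnf4a, and 247 to 516 in AKK. Of the 10, 9 lay higher in both AKK libraries, where 26.7% of all genes did. Several of these, such as Apoc3 with 0 and 1 reads in PBS, passed the filter on low counts only through AKK. Of 6 markers of bile duct and other epithelium, 3 had a positive and 3 a negative fold change, with a list median of 0.01. Epcam (0.131, 0.0210, 2.25 and 3.37 CPM) and Cldn4 (0.244, 0.652, 1.17 and 2.18 CPM) lay higher in both AKK libraries. Sox9 lay lower in both (246.4, 208.4, 200 and 203.7 CPM), and Krt7, Krt19 and Krt23 overlapped between groups. The 6 summed to 1048 to 2305 CPM in PBS and 1399 to 1962 in AKK, most of it Krt19, with no marker at 0. The part of these cells in the Fgfr2 values was not tested.

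**Figure D3:**
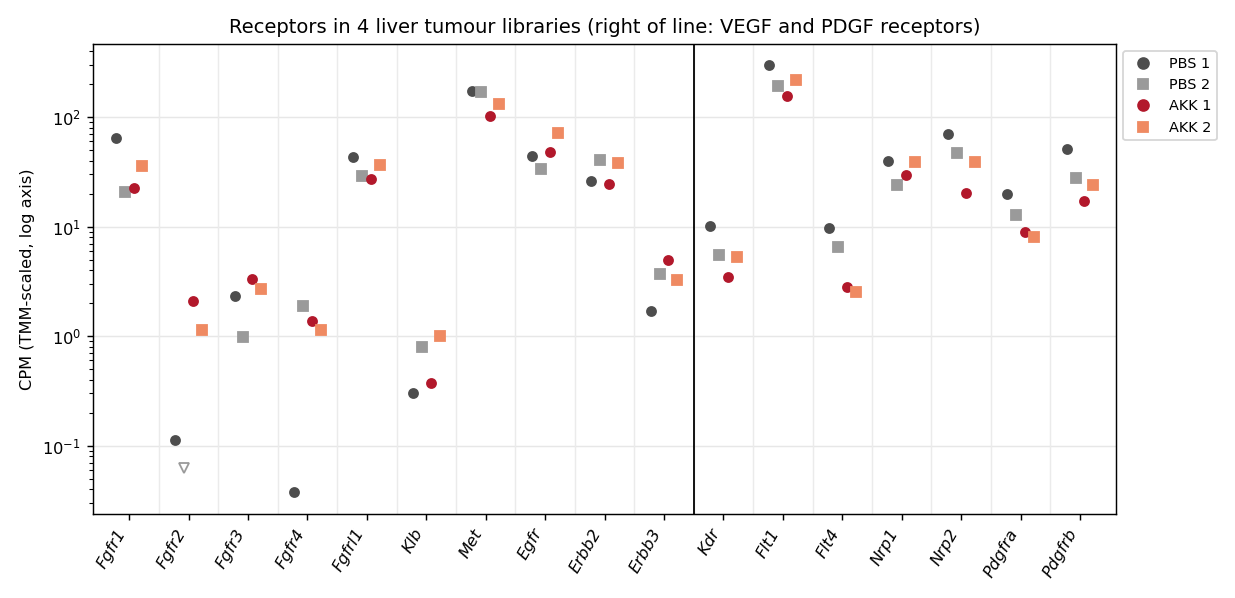
TMM-scaled CPM (log axis) of the 10 receptor genes that passed the filter and, right of the line, of 7 VEGF and PDGF receptors. Each point is 1 library, grey for PBS and red or orange for AKK; the open triangle marks 0 reads, drawn at the value of 3 reads. Fgfr2 is at 2.11 and 1.15 CPM in AKK and at most 0.113 in PBS, and Flt4 lies below 3 CPM in both AKK libraries and above 6 in both PBS libraries.

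All 5 genes of the VEGF family had a positive log2 fold change, between 0.15 and 0.67, and none passed the test. Of all 17479 genes, 9046 were positive. Vegfa (ENSMUSG00000023951.16), the hypoxia-induced driver of vessel sprouting, held 66.6 to 70.7% of the family's RPKM sum in the 4 libraries. It reached 478 CPM (PBS 1), 628 (PBS 2), 860 (AKK 1) and 576 (AKK 2). AKK 1 was the highest library, AKK 2 lay between the PBS libraries, and without AKK 1 the log2 fold change moved from 0.38 to 0.06. Vegfb, which binds the receptor FLT1, read 37.6 and 48.6 CPM in PBS and 85.4 and 51.3 in AKK (0.67, SE 0.29, edgeR adjusted p = 0.350), and without AKK 1 the value was 0.26. Vegfd, a lymphatic ligand, had PBS values of 1.09 and 1.43 CPM and AKK values of 2.35 and 1.59. AKK 1 was again the highest library for both. Vegfc, the main lymphatic ligand, read 44.8, 38.8, 36.6 and 56.0 CPM, and placental growth factor Pgf 11.6, 57.3, 46.7 and 34.9 CPM, with overlapping groups.

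The 7 VEGF and PDGF receptors and neuropilins are a list fixed with earlier results of these data known. They had 6 negative fold changes, where 8433 of all 17479 genes were negative, and 0 passed the edgeR test. For 5 of the 7 both AKK libraries lay below both PBS libraries, where 24.7% of all genes did. At an unadjusted p under 0.05 the list had 4 lower and 0 higher genes (8.62% and 6.7% of all genes), and the median log2 fold change was -0.94. Flt4, the receptor of VEGFC and VEGFD, had 9.60 CPM with PBS 1 and 6.50 with PBS 2, and 2.80 and 2.55 with AKK 1 and AKK 2. Its groups did not overlap, and the log2 fold change of -1.59 (SE 0.38) had an adjusted p of 0.199 in edgeR and 0.00202 in DESeq2, which called no other gene of this list; without PBS 1 the value was -1.28. Kdr, the main signalling receptor of VEGFA, read 10.2 and 5.45 CPM in PBS and 3.47 and 5.31 in AKK. Flt1, which also acts as a decoy, read 296, 190, 156 and 216 CPM with overlapping groups. The co-receptor Nrp2 had 70.3 and 47.3 CPM with PBS and 20.3 and 38.5 with AKK, while Nrp1 read 39.9, 23.7, 29.3 and 39.2 CPM.

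Vascular endothelial markers lay lower in AKK together with these receptors, while liver sinusoidal endothelial markers had no common direction. The 7 vascular markers summed to 64.1 to 86.9 CPM in PBS and 27.6 to 28.3 in AKK, and none was at 0. Of the 7, 6 were lower in both AKK libraries, where 24.7% of all genes were. Among 4 liver sinusoidal markers, Stab2 (7, 6, 150 and 48 reads) and Clec4g (0, 0, 30 and 5 reads, below the filter) were higher in both AKK libraries. Lyve1 was lower in both (8.98, 3.28, 3.08 and 0.993 CPM), and Oit3 overlapped between groups. Of 12 further genes of vessel growth, 0 passed in edgeR. At an unadjusted p under 0.05 there were 5 lower and 0 higher genes (8.62% and 6.7% of all genes). DESeq2 called 3 of the 5 as lower, against 3.04% of all genes it tested. They were the Notch ligand Dll4 (41.7 and 23.5 against 7.02 and 14.6 CPM), the orphan receptor Tie1 (9.99 and 5.97 against 3.31 and 2.997) and the apelin receptor Aplnr (5.32 and 2.02 against 1.10 and 0.873). The angiopoietin receptor gene Tek read 2.23 and 1.18 against 0.602 and 0.702 CPM. The hypoxia factor Hif1a read 765 and 867 CPM in PBS and 382 and 581 in AKK (edgeR adjusted p = 0.311). The part of endothelial content in the receptor values was not tested.

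The PDGF ligands divided by gene. Pdgfa (ENSMUSG00000025856.15), which acts mainly on PDGF receptor alpha, gave 42.5 CPM (PBS 1), 32.4 (PBS 2), 67.0 (AKK 1) and 68.4 (AKK 2). The AKK values were close to each other and above both PBS values. Its log2 fold change was 0.85 (SE 0.21), with an adjusted p of 0.207 in edgeR and 0.0442 in DESeq2, and stayed between 0.64 and 1.06 when any 1 library was left out.

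Pdgfd (ENSMUSG00000032006.14), which acts through PDGF receptor beta after proteolytic cleavage, amounted to 9.82 CPM (PBS 1), 3.43 (PBS 2), 1.38 (AKK 1) and 1.90 (AKK 2). Both AKK libraries lay below both PBS libraries, and PBS 1 stood well above PBS 2. The log2 fold change was -2.01 (SE 0.60), with an adjusted p of 0.248 in edgeR and 0.01815 in DESeq2. Without PBS 1 it was -1.06 (edgeR adjusted p = 0.671) and without PBS 2 it was -2.61 (0.0457). Of the summed PDGF ligand RPKM, Pdgfd held 13.5% and 5.96% in PBS and 1.69% and 1.67% in AKK, while Pdgfa held 57.0 to 83.1% across the libraries.

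Both other ligands overlapped between groups. Pdgfb, the ligand that recruits pericytes, read 6.02, 10.96, 6.30 and 28 CPM, with AKK 2 above the rest. Pdgfc read 24.4, 20.9, 12.3 and 35.1 CPM, with the AKK libraries on either side of PBS. The receptor genes lay lower in AKK without passing the edgeR test: Pdgfra gave 19.9 and 12.6 CPM with PBS, 8.95 and 7.98 with AKK, and Pdgfrb 51.1 and 27.8, then 17.0 and 23.8 (adjusted p = 0.277 and 0.297). The 10 fibroblast and stellate cell markers summed to 718 and 2131 CPM in PBS and 951 and 1433 in AKK, and the 6 pericyte and smooth muscle markers to 45.5 and 67.2 against 36.0 and 78.6, with no marker at 0 in either list. Of the 10 fibroblast markers 3 lay lower and 1 higher in both AKK libraries, where 24.7% and 26.7% of all genes did. Fap, a protease of activated fibroblasts, read 9.32 and 4.61 CPM in PBS and 2.00 and 1.18 in AKK, while Col1a1 overlapped between groups. The part of these cells in the PDGF values was not tested.

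**Figure D4:**
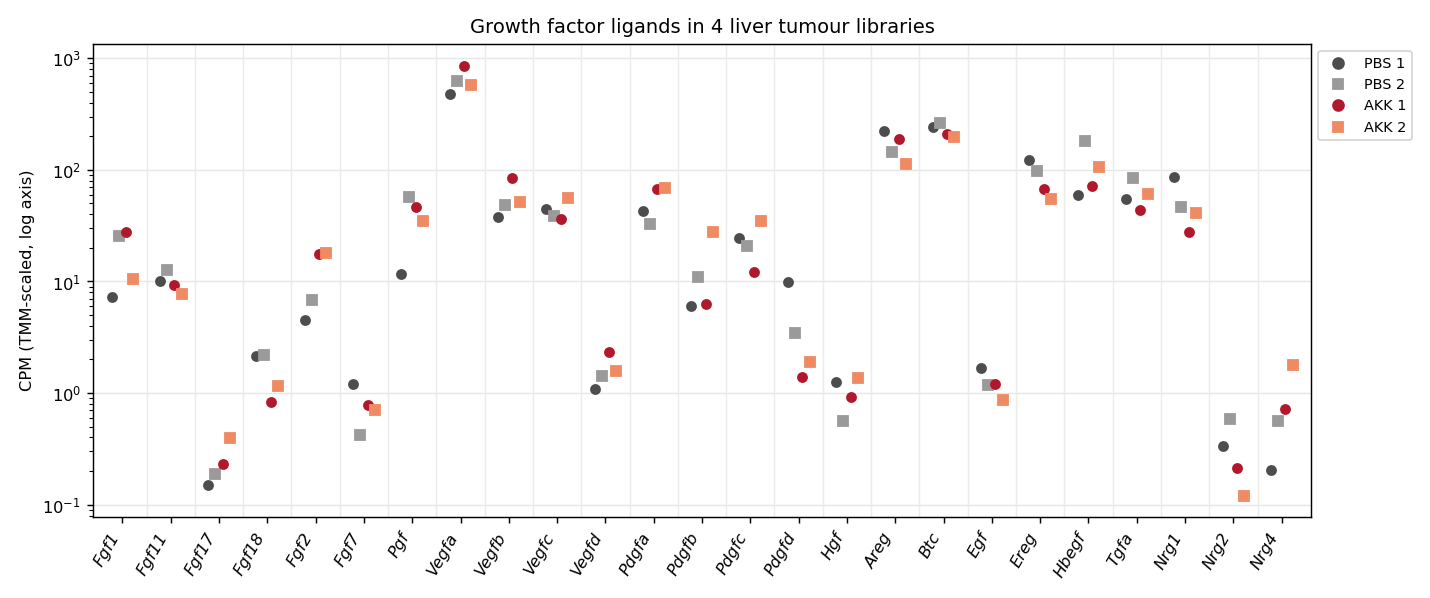
TMM-scaled CPM (log axis) of the 25 ligand genes that passed the filter, grouped by family from FGF on the left to neuregulins on the right. Each point is 1 library, grey for PBS and red or orange for AKK. Fgf2 and Pdgfa lie higher and Ereg, Pdgfd and Nrg1 lower in both AKK libraries.

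Met, the receptor tyrosine kinase for HGF, lay lower in the AKK tumours, and its ligand was scarce in all of them. Met (ENSMUSG00000009376.15) measured 171 and 168 CPM for PBS 1 and PBS 2, 102 and 133 CPM for AKK 1 and AKK 2. The PBS libraries were nearly equal and above both AKK libraries; the log2 fold change was -0.53 (SE 0.21), with an adjusted p of 0.318 in edgeR and 0.273 in DESeq2. Hgf, which mesenchymal cells secrete, had 67, 27, 52 and 79 reads, or 0.568 to 1.35 CPM, with overlapping groups. Per length, Hgf made up 0.361 to 1.08% of the summed Hgf and Met RPKM.

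HGF is secreted as an inactive chain that serine proteases cut. Of 9 genes for such proteases and their inhibitors 8 passed the filter and 0 passed the edgeR test. At an unadjusted p under 0.05 the list had 2 higher and 2 lower genes (6.7% and 8.62% of all genes). Hpn, the hepatocyte protease hepsin, read 0.431 and 0.147 CPM in PBS and 5.52 and 1.80 in AKK (DESeq2 adjusted p = 0.000419). St14, the epithelial protease matriptase, read 0.225 and 0.3995 against 1.40 and 1.22 CPM. Both lay at 0.431 CPM or less in the PBS libraries, where hepatocyte markers other than Hnf4a were also low. Plat, tissue plasminogen activator, read 210 and 197 CPM against 121 and 103, and Tmprss2, a membrane protease, 8.64 and 12.0 against 3.24 and 5.07. DESeq2 called both as lower, where it called 3.04% of all genes it tested. Hgfac, the HGF activator, read 4.82 CPM in PBS 1 and 25.8 to 36.2 in the other 3 libraries.

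The 6 EGF receptor ligands in this set all had a negative log2 fold change, between -0.30 and -0.84. Over all 17479 genes 8433 were negative. Ereg (ENSMUSG00000029377.5), epiregulin, which binds EGFR and ERBB4, was the one with the smallest p. PBS 1 gave 122 and PBS 2 gave 97.5 CPM, while AKK 1 gave 68.0 and AKK 2 gave 54.8 CPM. All PBS values lay above all AKK values. Its log2 fold change was -0.84 (SE 0.21), with an adjusted p of 0.216 in edgeR and 0.0435 in DESeq2, and it lay between -1.02 and -0.67 without any 1 library.

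Btc, betacellulin, read 244 and 265 CPM in PBS and 210 and 199 in AKK, so its groups did not overlap although the difference was small (-0.32, SE 0.19, edgeR adjusted p = 0.458). Areg, amphiregulin, which held 47.5 to 64.6% of the RPKM sum of this class, read 225, 146, 187 and 114 CPM. Hbegf, the heparin-binding member, read 59.0, 181, 71.8 and 106 CPM, and Tgfa 54.4, 83.7, 43.3 and 60.4 CPM. The groups of these 3 genes overlapped, as did those of Egf, at 0.873 to 1.67 CPM. Without PBS 1, or without AKK 2, the sign for Areg turned (0.04 and 0.01).

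The neuregulins, ligands of ERBB3 and ERBB4, had fold changes of both signs. Nrg1 (ENSMUSG00000062991.7) gave 85.5 CPM (PBS 1), 46.6 (PBS 2), 27.5 (AKK 1) and 41.4 (AKK 2). PBS 1 was the highest library, and PBS 2 lay little above AKK 2. The log2 fold change was -0.94 (SE 0.35), with an adjusted p of 0.305 in edgeR and 0.168 in DESeq2, and without PBS 1 it was -0.44. Nrg2 had 18 and 28 reads in PBS against 12 and 7 in AKK. Nrg4, a hormone-like ligand best known from brown fat, had 11, 27, 41 and 105 reads (1.71, SE 0.75, edgeR adjusted p = 0.346), and Nrg3 had none. The log2 fold change of Nrg4 was 1.15 without PBS 1, 2.58 without PBS 2, 2.22 without AKK 1 and 0.90 without AKK 2. At Nrg4 the opposite strand held far more reads, 527 to 845 per library. The unstranded counts, not the sum of both strands, were 78, 96, 96 and 175 reads, with a log2 fold change of 0.45.

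Among the ERBB receptors, Egfr (ENSMUSG00000020122.16) lay higher in both AKK libraries. Its values were 44.0 CPM (PBS 1), 33.5 (PBS 2), 48.4 (AKK 1) and 71.1 (AKK 2). AKK 1 was close to PBS 1, and the log2 fold change was 0.63 (SE 0.26, edgeR adjusted p = 0.336), or 0.31 without AKK 2. Erbb2, the partner receptor without a ligand of its own, read 26.0, 40.6, 24.4 and 38.2 CPM, a pattern in which the groups fully overlapped. Erbb3, which lacks an active kinase, read 1.71, 3.72, 4.92 and 3.27 CPM, and Erbb4 had 0 reads in 3 libraries and 2 in AKK 1. Per length, Erbb2 held 47.9 to 68.5% and Egfr 26.1 to 44.4% of the summed ERBB receptor RPKM.

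Genes that act around and below these receptors came from 7 lists of 90 genes, of which 88 passed the filter. None passed in edgeR. At an unadjusted p under 0.05 there were 4 higher and 21 lower, where 6.7% and 8.62% of all genes lay, which are also the shares for each list that follows. DESeq2 called 1 as higher and 11 as lower, against 2.08% and 3.04% of all genes it tested, and limma-voom 0. The median log2 fold change over the 88 was -0.26, against 0.02 over all genes.

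Within the cascade that receptors share, the 20 genes included 1 higher and 3 lower ones at an unadjusted p under 0.05. Braf, a RAF kinase, was at 54.0 and 53.8 CPM with PBS and at 28.5 and 31.8 CPM with AKK (-0.84 on the log2 scale, SE 0.18, adjusted p = 0.188 in edgeR and 0.0152 in DESeq2). The adaptor Gab2 read 58.4 and 78.9 against 18.8 and 45.1 CPM, and the RAS exchange factor Sos1 78.1 and 89.7 against 42.6 and 64.9. Mapk3, the kinase ERK1, read 108 and 131 against 196 and 153 CPM.

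Of 17 feedback inhibitors 14 had a negative fold change and 9 lay lower in both AKK libraries, with a median of -0.29. Over all 17479 genes 8433 were negative, and 24.7% lay lower in both AKK libraries. At an unadjusted p under 0.05 the list had 2 lower and 1 higher. Cbl, the ubiquitin ligase that removes activated receptors, read 155 and 143 CPM in PBS and 73.3 and 87.0 in AKK (-0.89, SE 0.19, adjusted p = 0.187 in edgeR and 0.00911 in DESeq2). Spry4, a Sprouty protein, read 157 and 164 against 107 and 84.6 CPM. Phlda1 went the other way, at 63.9 and 69.9 against 134 and 83.0 CPM. The phosphatase gene Dusp6, which ERK signalling induces, read 219, 315, 309 and 297 CPM with overlapping groups.

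Among 9 transcripts that respond to MAP kinase signalling, the count at an unadjusted p under 0.05 was 2 lower and 0 higher. Egr1, an immediate early transcription factor, gave 267 and 391 CPM with PBS and 145 and 99.1 CPM with AKK. Fos, also an immediate early gene, read 35.7, 24.6, 12.1 and 5.65 CPM. Both separated the groups, with log2 fold changes of -1.43 (SE 0.30) and -1.76 (SE 0.42), and the edgeR adjusted p was 0.187 for Egr1 and 0.202 for Fos (DESeq2 0.000971 and 0.00281). None of the ETS factors induced by FGF signalling reached an unadjusted p under 0.05. Etv4 lay higher in both AKK libraries (93.1 and 111 against 114 and 118 CPM) and Etv5 lower (40.6 and 41.9 against 22.5 and 38.6). Etv1 overlapped between groups, at 1.05 to 10.3 CPM.

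Of 16 genes for ligand shedding and matrix release 15 passed the filter, and 3 of them, all lower, had an unadjusted p under 0.05. Gpc3, a cell surface proteoglycan of fetal liver and liver tumours, had 0.731 and 0.336 CPM with PBS, 0.0177 and 0.0685 with AKK. These are 39, 16, 1 and 4 reads, and 3 reads are worth 0.0531 CPM in AKK 1 and 0.0514 in AKK 2. The AKK values are thus near the floor, and Gpc3 passed the filter only through PBS. The matrix protease Adamts1 read 25.4 and 33.0 against 14.7 and 15.5 CPM, and Ndst1, an enzyme of heparan sulfate synthesis, 222 and 237 against 39.0 and 127. Adam17, the protease that sheds EGF receptor ligands, read 94.1, 79.2, 68.2 and 83.0 CPM with overlapping groups.

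**Figure D5:**
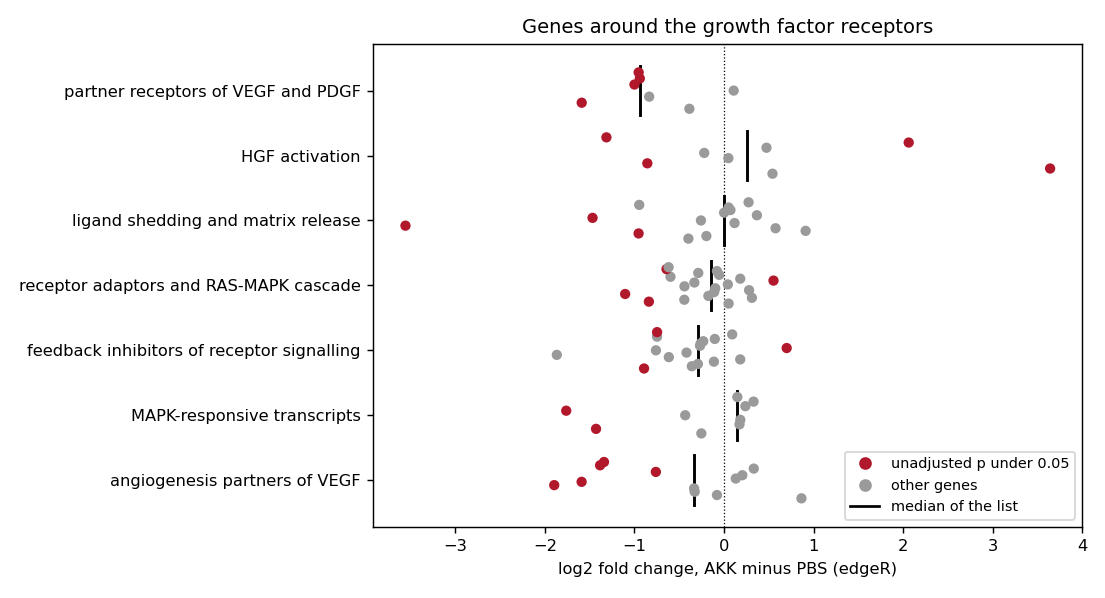
Log2 fold changes (AKK minus PBS, edgeR) of 88 genes in 7 lists around the growth factor receptors, 1 row per list; vertical spread within a row has no meaning. Red points had an unadjusted p under 0.05 (4 higher and 21 lower) and black lines are list medians, lowest at -0.94 for the VEGF and PDGF receptors.

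The PBS tumours differed from each other in many of these genes. Between PBS 1 and PBS 2, 13 of the 35 growth factor genes differed more than 2-fold, where 14.9% of all genes did. These included the receptor genes Fgfr1, Fgfr2, Fgfr3, Fgfr4, Klb and Erbb3 and the ligand genes Fgf1, Fgf7, Hgf, Hbegf, Pgf, Nrg4 and Pdgfd. Several rest on few reads, where counting error adds to the ratio: Fgfr2 had 6 and 0, Fgfr4 2 and 89, Nrg4 11 and 27, and Klb 16 and 38. Between AKK 1 and AKK 2 there were 5 (Fgf1, Klb, Nrg4, Pdgfb and Pdgfc), where 15.9% of all genes differed as much. The muscle markers that set PBS 1 apart, at 233 CPM, were measured in the same library, and their part in these differences was not tested.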

How the data were processed

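RNA from liver tumours was sequenced as pairs of 151 bp reads in 4 libraries, per the labels' protocols. The authors deposited raw gene counts, in the form that STAR writes; STAR 2.5.2 and RSEM 1.2.31 appear in the submitters' processing notes. For build and annotation release: not given in the sources used here. The column of counts on the gene's own strand was used (95.4 to 96.2% of strand-assigned reads). Summary rows that name no gene (27.6 to 31.4% of reads) were left out. Of 48526 identifiers 48058 matched a symbol.

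Groups were compared with edgeR 4.0.16 (R 4.3.3; legacy quasi-likelihood test, TMM, filterByExpr, two-sided, prior count 0.125), with a Benjamini-Hochberg adjusted p of 0.05 as threshold across 17479 kept genes. Standard errors came from the F statistic. DESeq2 1.42.0 gave an adjusted p for 17140 of these genes, and limma 3.58.1 ran voom. RPKM used union exon lengths of GENCODE M21, which may differ from the submitters' annotation. Promoter windows came from RefSeq (GRCm38.p6), shown for members at an unadjusted p under 0.05 where they held no exon of their gene in GENCODE M21. The edgeR step was also run on simulated counts with large planted changes and a single fixed spread. That run does not measure its performance on these data.

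The members and gene lists were chosen with earlier results of these data known. Genes described are those at an unadjusted p under 0.05, those DESeq2 called, the 2 most abundant per family and, more briefly, every other member; from each pathway list, up to 4 at an unadjusted p under 0.05 and all 7 VEGF and PDGF receptors. Other genes were named after their values were seen. Alternatives were other scalings, filters, count column, tests, threshold, a replicate block and each library left out, where a lone library was taken to have the spread of the other group.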

Additional observations from a re-analysis of the deposited data

How the results depend on the processing

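Across the other settings the number of growth factor genes past the threshold was 0 except without a filter on low counts (2, Fgf2 and Fgfr2), with DESeq2 (5), without PBS 1 (1, Fgfr2) and without PBS 2 (1, Pdgfd), so a range of 0 to 1 without any 1 library. For all genes (1 in edgeR) the count was 3 with upper-quartile scaling, 631 without the filter, 878 with DESeq2, 0 with limma-voom, 4 with the edgeR 4 form of the test, added after seeing the data, 3 at an adjusted p of 0.1, and 0 to 324 without any 1 library. For the pathway lists, whose alternatives were also added, it was 4 without the filter, 12 with DESeq2 and 0 to 2 without any 1 library. Without the filter 47 growth factor genes entered, of which 13 had an unadjusted p under 0.05, and their median log2 fold change was -0.10. Leaving out a library gave 7 to 11 genes at that p, 24 to 32 with groups apart (a lone library separates more easily) and medians of -0.20 to 0.24. The samples share replicate numbers but no stated pairing (correlation of same-numbered deviations -0.0237). With the replicate block, 209 genes, 0 growth factor genes and 2 pathway genes (Fos and Hpn) passed.

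Of 246 values for 19 described genes 14 changed sign, none of them past the threshold in either fit. Pdgfc was -0.12 with the block and -0.12 with limma-voom. Without any 1 library the ranges that crossed 0 were -0.704 to 0.0388 for Areg, -0.45 to 0.24 for Erbb2, -0.62 to 1.36 for Fgf1, -1.19 to 0.48 for Fgfr1, -0.46 to 0.13 for Fgfrl1, -0.17 to 0.998 for Hgf and -0.89 to 0.63 for Pdgfc. The cause was not tested. Depth limits the genes with few reads, such as Nrg2, Fgf17 and Fgf21.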

Other observations

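Reads on the opposite strand were common at a few growth factor genes. At Nrg4 they made up 93.8% of the strand-assigned reads, at 710 and 527 reads for PBS and 711 and 845 for AKK, against 11, 27, 41 and 105 on its own strand. In the unstranded counts, which are not the sum of both strands, the log2 fold change of Nrg4 was 0.45 (edgeR adjusted p = 0.666). At Fgf2 the opposite strand held 39.9% and at Klb 28.9%, while at Pdgfa it held 6.98%.

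Markers of other cells that could supply growth factors were also measured. The 4 platelet and megakaryocyte markers, a cell type that carries PDGF, summed to 12.3 and 6.43 CPM in PBS and 11.3 and 5.89 in AKK, with Gp9 at 0 in PBS 1 and AKK 2. The 6 macrophage markers summed to 320 and 257 CPM in PBS and 177 and 201 in AKK. Kupffer cell markers summed to 0.337 and 0.0210 CPM in PBS and to 18.2 and 2.38 in AKK, with 4 of the 5 at 0 in PBS 2. Mesothelial markers summed to 218 and 631 CPM in PBS and 222 and 233 in AKK, nearly all of it Msln. T cell markers summed to 1.37 and 2.06 CPM in PBS and 5.13 and 2.23 in AKK, neutrophil markers to 3.39 to 5.12 against 5.67 to 10.6. Schwann cell markers summed to 2.60 to 3.22 over all 4 libraries. Liver sinusoidal markers summed to 10.2 and 4.88 CPM in PBS and 8.09 and 3.08 in AKK, with Clec4g at 0 in both PBS libraries. The part of all these cells in the growth factor values was not tested.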
